A study of Mus musculus with 6 samples.

Results

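Genomic imprinting was examined in pMEFs, the primary fibroblasts that grow out of cultured mouse embryo tissue, with and without the histone acetyltransferase HAT1. The members were 51 genes known as imprinted in mouse, 23 expressed from the maternal allele, 25 from the paternal allele and 3 whose expressed allele depends on the isoform, in 20 clusters or single loci. For 15 of them, 13 maternally and 2 paternally expressed, imprinted expression is known mainly from certain tissues such as placenta or brain, and these are called restricted here. Of the 51, 47 had a row among the 17512 genes of the count table and 45 entered the test with 14773 genes in all. Slc22a3, Rian, Ascl2 and Magel2 had no row, and Phlda2 and Kcnq1 had too few counts to be tested.

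RNA-seq was made from 6 lines, 3 of genotype HAT1 WT (lines 36, 47 and 78) and 3 of genotype HAT1 KO (lines 33, 41 and 72), to ask how transcription differs without the enzyme. All lines had the C57bl6 background, carried no further allele or treatment that the labels name, and were grown in DMEM with serum and antibiotics. By the study's methods such fibroblasts came from embryos of mid-gestation whose internal organs had been removed, and the exact day of each line was not given. The labels number the lines but do not say that each came from its own embryo, so the p-values measure the spread between these 6 cultures.

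Imprinted genes are expressed from 1 parental chromosome only, because DNA methylation laid down differently in egg and sperm marks the 2 copies, and they lie in clusters under shared control regions. Many act on fetal growth, with paternally expressed genes such as Igf2 tending to promote it and maternally expressed genes such as Cdkn1c, Grb10 and Igf2r to restrain it, and many are switched down after birth. The counts here add both alleles, and an inbred background carries no variants to tell them apart, so the parental origin of the RNA was not measured.

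Several members are precursors of small RNAs or carry control sequences, which are shown here for transcripts that differed widely between lines. H19 holds miR-675, Igf2 holds miR-483 and Mest holds miR-335 in the sense direction, Mirg holds 14 hairpins, and 6 hairpins lie opposite to Rtl1. Between Dlk1 and Dio3 on chromosome 12 the RefSeq table for GRCm38.p6 lists 58 hairpins, 54 of them on the plus strand, giving 108 mature microRNAs with 99 distinct seeds. The mature 5p and 3p forms follow with bases 2 to 8, the seed that pairs with targets, in capitals. The microRNAs themselves were not measured, and the values below are those of the host transcripts.

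miR-675-5p (chr7:142577112-142577133, minus strand): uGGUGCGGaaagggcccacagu
miR-675-3p (chr7:142577078-142577099, minus strand): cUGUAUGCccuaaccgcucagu
miR-483-5p (chr7:142654968-142654989, minus strand): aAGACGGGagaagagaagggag
miR-483-3p (chr7:142654932-142654952, minus strand): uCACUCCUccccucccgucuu
miR-335-5p (chr6:30741314-30741336, plus strand): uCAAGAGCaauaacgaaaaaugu
miR-335-3p (chr6:30741354-30741375, plus strand): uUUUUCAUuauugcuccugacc

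The zinc finger protein ZFP57 keeps methylation at imprinting control regions by binding the methylated hexamer TGCCGC. On either strand of windows running from 250 bases before to 50 bases after a RefSeq start, this hexamer occurred in 12 of 42 matched member genes (28.6%) and in 3527 of 27025 genes of the table (13.1%). The share was 35.0% for paternally expressed members (7 of 20) and 26.3% for maternally expressed members (5 of 19). A gene was counted if any of its windows matched. By window the share was 20.0% for members and 11.6% for the table, and 22.9% for paternally and 20.8% for maternally expressed members. Member windows also held more CpG dinucleotides, with a median of 16 against 7, so the hexamer count and base composition differed together. The 250 bases before 1 start each of Mest, Meg3 and Dlk1 are shown, with the hexamer in either orientation in capitals. They were chosen because these transcripts lay at least 2-fold from the median of the others in KO line 72, as described below. Dlk1 also did so in WT line 47 and KO line 41. The Mest window shown, at the start of the shorter transcripts, held 2 copies, the Meg3 window shown held 1 and the Dlk1 window held 0. A further Mest window (chr6:30733256-30733505) and a further Meg3 window (chr12:109545148-109545397), not shown, held 0 copies. A match describes these letters and is not a binding site.

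Mest (GRCm38.p6 chr6:30737800-30738049, plus strand): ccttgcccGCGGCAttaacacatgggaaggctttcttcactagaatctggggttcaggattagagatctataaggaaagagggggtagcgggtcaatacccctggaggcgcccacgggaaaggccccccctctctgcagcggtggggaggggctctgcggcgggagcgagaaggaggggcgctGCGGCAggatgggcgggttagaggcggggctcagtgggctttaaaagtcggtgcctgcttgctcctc
Meg3 (GRCm38.p6 chr12:109540746-109540995, plus strand): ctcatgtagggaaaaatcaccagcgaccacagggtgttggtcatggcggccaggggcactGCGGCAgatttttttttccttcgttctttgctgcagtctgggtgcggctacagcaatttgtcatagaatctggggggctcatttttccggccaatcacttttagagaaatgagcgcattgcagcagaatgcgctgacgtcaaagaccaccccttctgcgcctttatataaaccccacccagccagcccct
Dlk1 (GRCm38.p6 chr12:109452573-109452822, plus strand): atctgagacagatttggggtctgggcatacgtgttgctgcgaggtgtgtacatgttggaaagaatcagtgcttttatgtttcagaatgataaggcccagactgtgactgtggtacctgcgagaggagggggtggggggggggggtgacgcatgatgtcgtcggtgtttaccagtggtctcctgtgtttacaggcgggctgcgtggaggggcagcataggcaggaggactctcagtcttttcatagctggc

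Libraries held 67720628 to 98786746 counts. The targeted gene Hat1 stood at 17.4, 23.0 and 20.1 TMM-scaled CPM (counts divided by library size, which the TMM method adjusts for composition) in WT lines 36, 47 and 78 and at 10.2, 10.0 and 10.3 CPM in KO lines 33, 41 and 72, the order of lines used from here on. All KO lines were below all WT lines (log2 fold change -0.99 ± 0.12, given as estimate ± SE here and below, edgeR quasi-likelihood adjusted p = 0.0376). They kept 50.4% of the WT mean, and since the deleted stretch of the gene is not given in the labels, the gene total cannot show whether that RNA is intact. The estimate kept its direction in every alternative fit and was -0.98 with the Y-linked term described below. But the edgeR adjusted p was 0.529 with lane in the model and 0.0587 to 0.23 with 1 line left out. Fibroblast markers were abundant in every line, but their summed level was lowest in KO line 72 (57533 CPM against 70831 to 89398 CPM in the others). Of 10 blood cell markers all 10 had lower estimates in KO, 7 of them at adjusted p under 0.05 in edgeR, with sums of 4739 to 5159 CPM in WT and 2349 to 2839 CPM in KO lines. At adjusted p under 0.05, 0 of the 10 passed with lane in the model and 0 with 1 line left out, except 4 without KO line 72. At unadjusted p under 0.05, 9 stayed in each of these fits. With the Y-linked term, 9 had lower estimates and 1 a higher estimate in KO. All 12 proliferation genes had higher estimates in KO, with sums of 493 to 741 CPM in WT and 695 to 1030 CPM in KO lines. In edgeR 8 of them were at unadjusted p under 0.05 and none at adjusted p under 0.05, where DESeq2 called 2. With lane in the model 1 of them was at unadjusted p under 0.05, and with 1 line left out 2 to 11. Markers of endothelial, epithelial, trophoblast and liver cells summed to at most 14.6, 2.49, 1.89 and 3.11 CPM, those of skeletal muscle to at most 26.9 CPM, and those of neural cells to 109 to 210 CPM in the other lines and 259 CPM in KO line 72. Y-linked transcripts were abundant in WT lines 36 and 47 only (13788 and 12841 counts, against 4 to 231 in the other lines), and the sequencing lanes were split unevenly between genotypes. The Y-linked term marks WT lines 36 and 47, so with it the genotype estimate compares the KO lines with WT line 78 alone. For that reason only estimates, and no p-values or calls, are given from that fit. It cannot account for Y-linked differences between the genotypes. Lane 8 held only WT line 36, so with lane in the model that line does not add to the genotype estimate. Fewer degrees of freedom remain there, and a lost call cannot be told apart from a loss of power. What part these differences have in the values below was not tested beyond the fits with lane given beside them. In bulk RNA, fewer cells of a type and less RNA per cell cannot be told apart.

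No tested imprinted gene separated HAT1 WT from HAT1 KO cells at the adjusted threshold in edgeR, and the widest differences were between single lines. None passed adjusted p under 0.05 in the edgeR quasi-likelihood test, in either direction, where 0.528% of all tested genes passed as lower in KO and 0.0% as higher. At unadjusted p under 0.05, 3 of 45 members (6.67%) were lower in KO, against 8.77% of all tested genes, and 0 were higher, against 5.88%. With a change of at least 1.5-fold added, 2 members (4.44%) were lower, against 4.62%, and 0 were higher, against 1.5%. DESeq2 called 1 member, Ppp1r9a, lower at adjusted p under 0.05 (2.22% of members, against 4.37% of all tested genes) and 0 higher (against 1.53%). All these shares of members were at or below those of all genes. The estimate was above 0 for 19 members and below 0 for 26, and the median log2 fold change was -0.053, beside 0.0085 for all tested genes. The median was -0.081 for the 18 tested maternally expressed members and -0.096 for the 24 paternally expressed members. Without the restricted members it was -0.41 for 8 maternally and -0.096 for 22 paternally expressed members. For these 8, the median log2 deviation from the gene mean was 0.046, 0.16 and 0.34 in WT and 0.21, 0.34 and -1.05 in KO lines. Only KO line 72 lay below the WT lines.

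**Figure D1:**
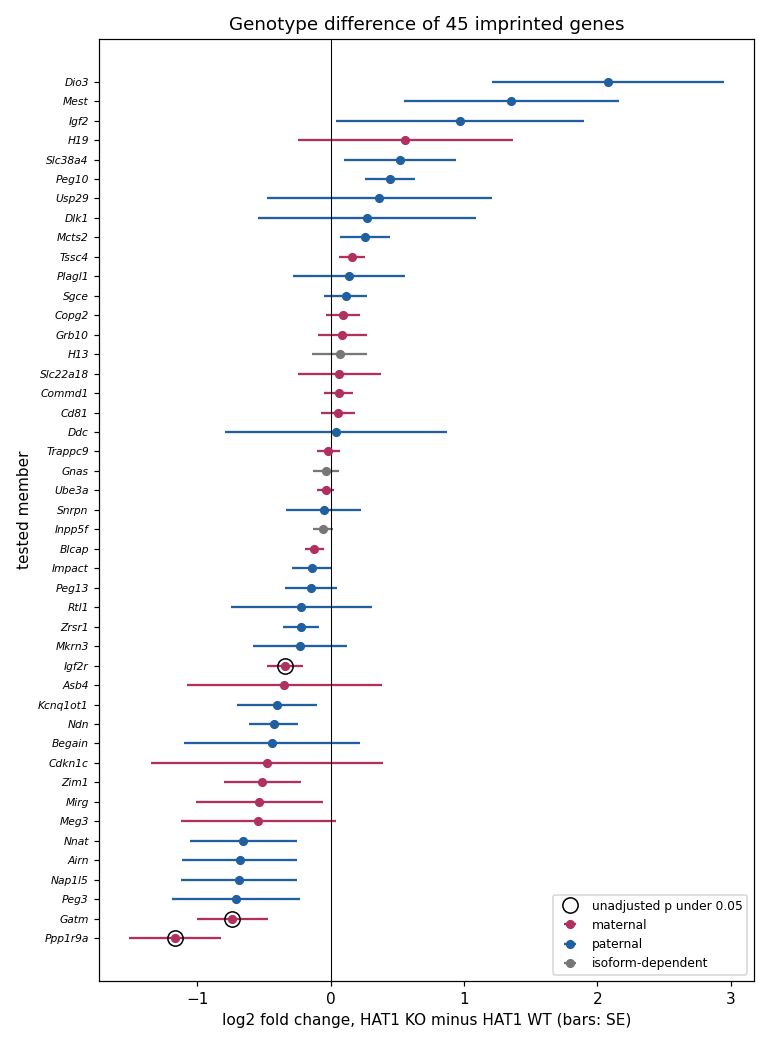
Log2 fold change of HAT1 KO over HAT1 WT lines (x axis, bars show the SE, 3 lines in each genotype) for the 45 tested members (y axis), coloured by expressed allele. The estimates run from -1.17 for Ppp1r9a to 2.08 for Dio3, and the black rings mark the 3 members with unadjusted p under 0.05, all lower in KO.

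Among receptors, Igf2r, which carries IGF2 to the lysosome and so lowers its level, had 972, 874 and 1056 CPM in WT and 793, 855 and 640.0 CPM in KO lines. Every KO line lay below every WT line, by a small margin between KO line 41 and WT line 47. Its log2 fold change was -0.34 ± 0.13, with unadjusted p = 0.0414 and adjusted p = 0.321 in edgeR. With lane in the model it was -0.29 (unadjusted p = 0.109), and with the Y-linked term, against WT line 78 alone, -0.47. Without KO line 33 or 72 or WT line 36 or 78 the unadjusted p was 0.068 to 0.136, and with no filter on low counts 0.0531. Airn, the paternally expressed noncoding RNA that runs through the Igf2r gene on the other strand, had 1.99, 2.55 and 3.42 CPM in WT and 1.39, 2.65 and 0.920 CPM in KO lines. The groups overlapped, with KO line 72 lowest and WT line 78 highest. The library kit keeps no strand. Annotated exons of the pair share under 50 bases, but their spans overlap, and Igf2r counts were 309 to 695 times those of Airn. How far reads from Igf2r introns add to the Airn count was not tested.

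Ppp1r9a, a restricted member which encodes the actin-binding protein neurabin and lies beside Sgce and Peg10 (chr6:4902917-5165661), had 4.59, 4.70 and 2.66 CPM in WT and 1.71, 2.40 and 1.21 CPM in KO lines. The groups did not overlap, but WT line 78 stood closer to KO line 41 than to the other WT lines. For Ppp1r9a the log2 fold change was -1.17 ± 0.34, with unadjusted p = 0.0133 and adjusted p = 0.218 in edgeR. It was -1.06 with lane in the model (unadjusted p = 0.0786), so that fit did not keep the unadjusted call. With the Y-linked term, which compares the KO lines with WT line 78 alone, it was -0.59. Gatm, a restricted member and an enzyme of creatine synthesis, had 7.20, 6.20 and 8.60 CPM in WT and 5.83, 4.33 and 3.03 CPM in KO lines. The groups did not overlap and KO line 72 was lowest (log2 fold change -0.74 ± 0.26, unadjusted p = 0.0302, adjusted p = 0.292 in edgeR). With lane in the model the estimate was -0.70 (unadjusted p = 0.126), and with the Y-linked term, against WT line 78 alone, -0.97. Without KO line 41 or 72 or WT line 36 or 78 the unadjusted p was 0.0511 to 0.106.

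In all, 5 of 45 members (11.1%) had every KO line below every WT line, namely Igf2r, Ppp1r9a, Gatm, Nnat and Zrsr1, against 12.4% of all tested genes, and 0 had every KO line above, against 9.59%. For a single gene an exact two-sided permutation of 3 lines against 3 cannot give a p below 0.1. Nnat, a small membrane protein of developing tissue, had 2.47, 3.43 and 2.81 CPM in WT and 2.30, 2.35 and 0.869 CPM in KO lines, with KO line 72 far below the rest. Its 2 other KO lines lay just under the lowest WT line, and the unadjusted edgeR p was 0.150.

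Many members differed widely among the 6 lines, and most of the wide ranges involved KO line 72. The highest line exceeded the lowest at least 4-fold for 15 of 45 members (33.3%), against 10.8% of all tested genes. The median ratio of highest to lowest line was 2.12 for members, 3.49 for those expressed from the paternal and 1.76 for those expressed from the maternal allele, beside 1.46 for all tested genes. This order of the alleles turned without the restricted members, with 3.29 for 8 maternally and 2.83 for 22 paternally expressed members. The 10 restricted maternally expressed members had a median of 1.33. Without KO line 72, 3 members (6.67%), Igf2, Dlk1 and Asb4, still differed 4-fold over the remaining 5 lines, against 5.89% of all tested genes. Within the WT lines alone 6 members (13.3%) differed at least 2-fold, against 10.5%.

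KO line 72 was the lowest of the 6 lines for 23 of 45 members (51.1%), against 25.4% of all tested genes, and the highest for 9 (20.0%), against 26.0%. It lay at least 2-fold below the median of the other 5 lines for 16 members (35.6%), against 8.18% of all tested genes, and at least 2-fold above it for 2 (4.44%), Dio3 and Mest, against 4.81%. In WT lines 36, 47 and 78 there were 0, 1 and 1 such low members, against 2.05%, 1.35% and 2.5% of all tested genes, and in KO lines 33 and 41 there were 0 and 1, against 3.78% and 4.15%. KO line 33 had 3 members 2-fold above the median (6.67%, against 2.69%), H19, Igf2 and Usp29. WT lines 36, 47 and 78 had 1, 0 and 2 such high members, against 2.65%, 2.58% and 3.45%, and KO line 41 had 1, against 1.69%. The 16 low members of KO line 72 came from both alleles and from most of the large clusters, and 1 line has no replicate of its own, so these shares carry no test.

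**Figure D2:**
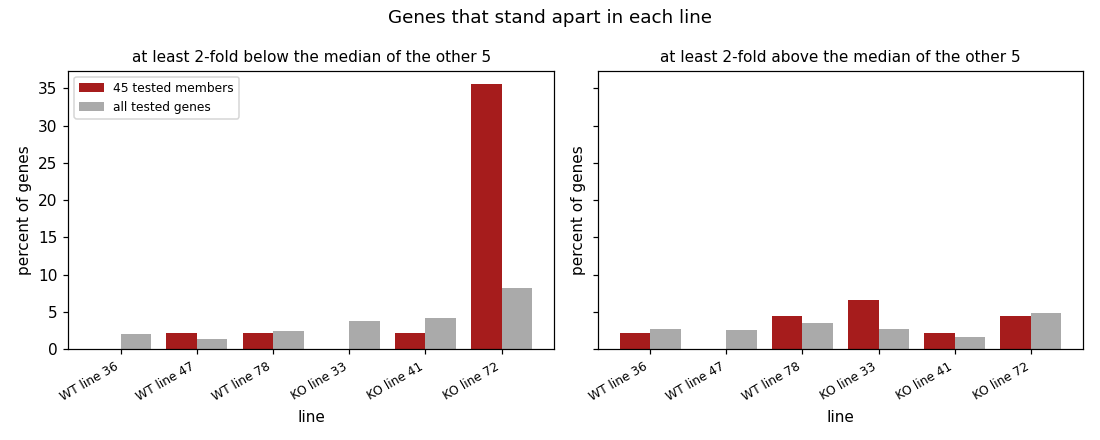
Percent of the 45 tested members (red) and of all tested genes (grey) that lay at least 2-fold below (left) or above (right) the median of the other 5 lines (y axis), for each line (x axis). In KO line 72 the low share is 35.6% of members against 8.18% of all tested genes, and in KO line 33 the high share is 6.67% against 2.69%.

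**Figure D3:**
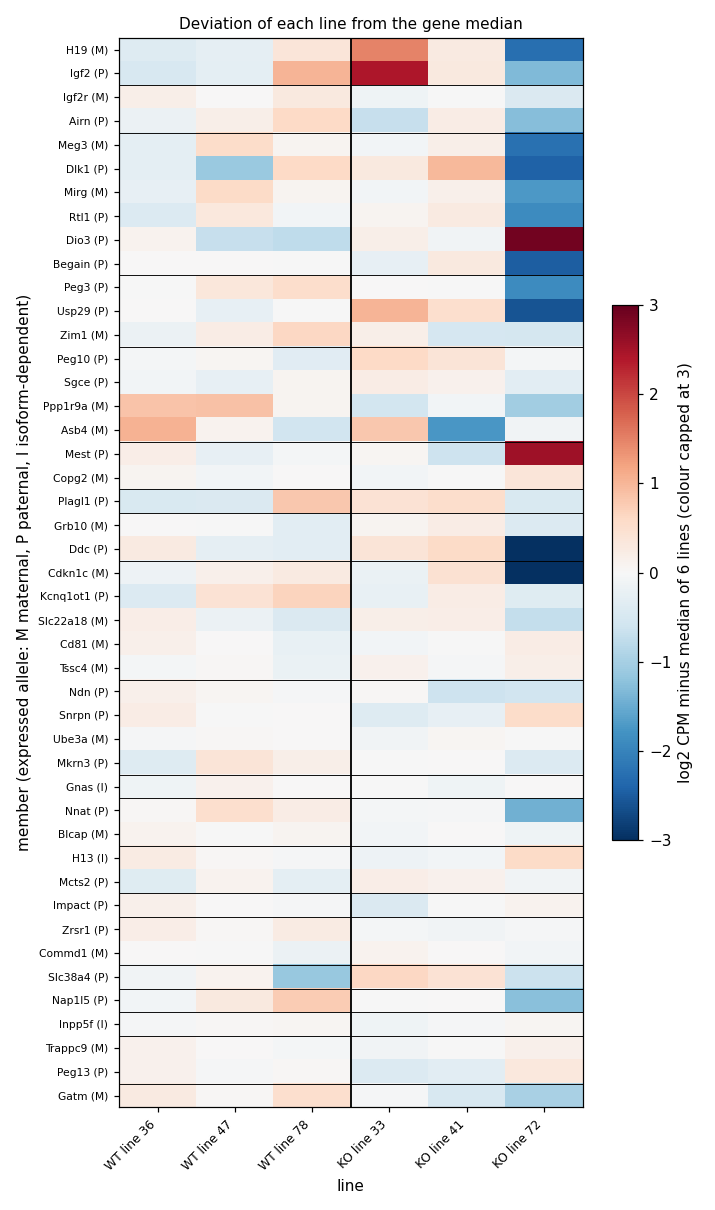
Log2 CPM of each tested member (y axis, by cluster, with its expressed allele) in each line (x axis) minus the median of the 6 lines, blue for lower and red for higher. The column of KO line 72 holds most of the dark cells. They are blue for H19, Dlk1, Meg3, Mirg, Rtl1, Begain, Peg3, Ddc and Cdkn1c and red for Dio3 and Mest.

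H19 and Igf2 share an enhancer and a control region on distal chromosome 7, with H19 (chr7:142575529-142578143), a growth-restraining noncoding RNA, expressed from the maternal and Igf2 (chr7:142650766-142666816), a fetal growth factor, from the paternal chromosome. H19 had 250.1, 272 and 423 CPM in WT and 924, 398 and 68.8 CPM in KO lines. Igf2 had 104, 119.8 and 294 CPM in WT and 779, 178 and 58.6 CPM in KO lines. For both transcripts KO line 33 was the highest and KO line 72 the lowest of all lines, and the WT lines lay between them. The log2 fold change was 0.56 ± 0.81 for H19 and 0.97 ± 0.93 for Igf2, with adjusted p = 0.797 and 0.678 in edgeR. Without KO line 33 the estimates turned to -0.43 and -0.55, so the direction rested on that line.

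The 2 transcripts kept close to each other while both varied. H19 ranged 13.4-fold over the lines and Igf2 13.3-fold, but the ratio of their counts ranged from 1.17 to 2.40 (2.04-fold). It was 2.40, 2.27 and 1.44 in WT and 1.19, 2.24 and 1.17 in KO lines, and the groups overlapped. A gene model on the same strand, Gm49394, shares exon sequence with Igf2, and how reads there were counted is not given in the sources used here. Against its clearing receptor, the count of Igf2 was lowest in KO line 72 (ratio to Igf2r 0.0915) and highest in KO line 33 (0.982), with 0.107, 0.137 and 0.278 in the WT lines.

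The Dlk1-Dio3 cluster on chromosome 12 expresses Dlk1, Rtl1 and Dio3 from the paternal and the noncoding RNAs Meg3, Rian and Mirg from the maternal chromosome. Meg3 had 26.6, 48.1 and 34.5 CPM in WT and 30.9, 36.9 and 6.95 CPM in KO lines. Mirg, the host of the microRNA array, had 9.80, 17.1 and 12.3 CPM in WT and 10.8, 12.8 and 3.50 CPM in KO lines. Rtl1, a gene derived from a retrotransposon and needed in the placenta, had 8.54, 14.1 and 10.9 CPM in WT and 12.0, 13.7 and 3.06 CPM in KO lines. In all 3 the lines other than KO line 72 lay within 2-fold of each other, with WT line 47 highest, and KO line 72 lay 4.96-fold (Meg3), 3.53-fold (Mirg) and 3.92-fold (Rtl1) below the median of the others.

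The ratio of Meg3 to Mirg counts was 2.71 to 2.89 in the 5 lines other than KO line 72 and 1.99 in that line. Meg3 over Rtl1 was 3.11, 3.40 and 3.17 in WT and 2.58, 2.69 and 2.27 in KO lines. The KO values of this ratio lay below the WT values without overlap, which held for 1 of the 14 ratios computed. Rtl1 is covered on the other strand by maternal transcripts, and without strand their reads cannot be told apart from its own.

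Dlk1, a membrane protein of the Notch ligand family that holds back adipocyte differentiation, had 151, 85.3 and 278 CPM in WT and 224, 363 and 34.3 CPM in KO lines. It varied 10.6-fold, with KO line 41 highest, KO line 72 lowest and WT line 47 next to lowest. Its log2 fold change of 0.27 ± 0.82 changed sign to -0.42 with the Y-linked term and to -0.40 without KO line 41. Dio3, the deiodinase that inactivates thyroid hormone and lies at the far end of the cluster (chr12:110279068-110281097), went the other way in KO line 72, a pattern picked after its values were seen. It had 3.08, 1.74 and 1.66 CPM in WT and 3.20, 2.63 and 21.5 CPM in KO lines. KO line 72 stood 8.15-fold above the median of the others, the remaining 5 lines lay within 2-fold of each other, and the log2 fold change of 2.08 ± 0.87 had unadjusted p = 0.0525 and adjusted p = 0.348 in edgeR. Without KO line 72 the estimate was 0.45. Begain, a restricted member that encodes a partner of a synaptic scaffold protein, ranged 6.88-fold at 0.130 to 1.04 CPM and lay 6.52-fold below the median of the others in KO line 72. Counts of Dlk1 were 49.0 to 167 times those of Dio3 in 5 lines and 1.60 times in KO line 72.

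**Figure D4:**
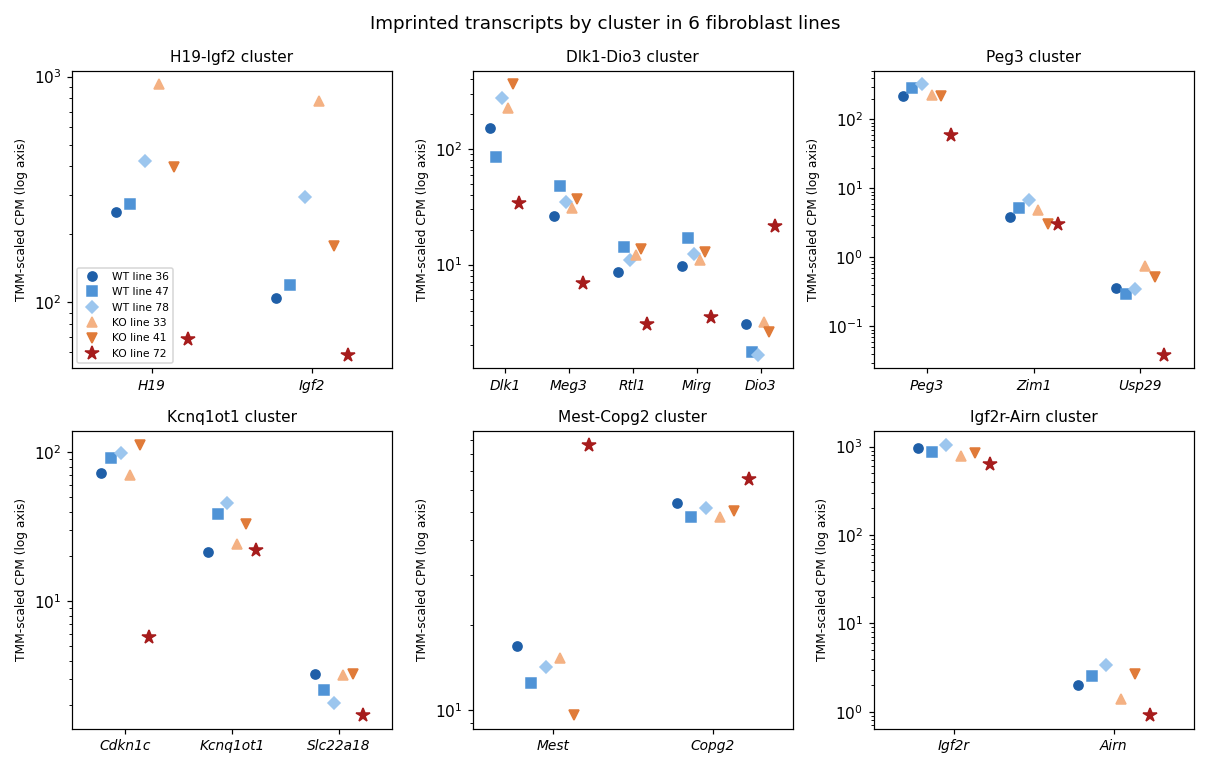
TMM-scaled CPM on log axes (y axis) of members of 6 imprinted clusters (x axis, 1 panel for each cluster) in WT (blue) and KO (orange and red) lines, 1 point for each line. KO line 72 (red star) lies lowest for H19, Igf2, Dlk1, Meg3, Rtl1, Mirg, Peg3, Usp29 and Cdkn1c and highest for Dio3 and Mest, and KO line 33 lies highest for H19 and Igf2.

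Mest, a paternally expressed gene for a hydrolase-fold protein of growing mesoderm (chr6:30723547-30748465), had 16.9, 12.4 and 14.2 CPM in WT and 15.2, 9.62 and 86.6 CPM in KO lines. KO line 72 stood 6.09-fold above the median of the others, which overlapped between genotypes. Its log2 fold change of 1.36 ± 0.81 (edgeR unadjusted p = 0.142) turned to -0.21 without that line. Copg2, a coat protein subunit gene on the opposite strand that shares 912 exon bases with Mest, had 53.8, 48.1 and 51.5 CPM in WT and 48.0, 50.3 and 65.2 CPM in KO lines. Its KO line 72 was also highest, but by 1.30-fold over the median of the others, and reads in the shared bases cannot be assigned to a strand. Cpa4, a carboxypeptidase gene reported as imprinted in the same region and singled out after its values were seen, had 0.212, 0.224 and 0.121 CPM in WT and 0.180, 0.118 and 5.50 CPM in KO lines. It too was highest in KO line 72, with 0.224 CPM or less in every other line (edgeR unadjusted p = 0.0653).

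Among the growth inhibitors, Cdkn1c, which encodes the cyclin-dependent kinase inhibitor p57, showed the widest range of the tested members, 19.6-fold. It had 73.0, 91.2 and 98.3 CPM in WT and 70.7, 113 and 5.73 CPM in KO lines. KO line 72 lay 15.9-fold below the median of the others, which differed by less than 2-fold and overlapped between genotypes. The log2 fold change was -0.47 ± 0.87, and 0.076 without KO line 72. Kcnq1ot1, the paternally expressed antisense RNA of the same cluster that silences Cdkn1c on the paternal copy, had 21.3, 38.4 and 45.3 CPM in WT and 24.1, 33.2 and 22.2 CPM in KO lines. The groups overlapped, WT line 36 was lowest and KO line 72 lay close to it. Counts of Cdkn1c were 2.17 to 3.43 times those of Kcnq1ot1 in 5 lines and 0.259 times in KO line 72.

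The other genes of that cluster differed less. Phlda2, a placental growth regulator, and the potassium channel gene Kcnq1 were close to absent, with at most 0.0994 and 0.156 CPM. The tetraspanin gene Cd81, the snRNP assembly factor Tssc4 and the transporter gene Slc22a18 ranged 1.37-fold, 1.29-fold and 1.88-fold over the 6 lines. Grb10, an adaptor that dampens insulin and IGF receptor signals, had 786, 765 and 623 CPM in WT and 824, 906 and 579 CPM in KO lines. KO line 41 was highest, KO line 72 lowest, and the groups overlapped (log2 fold change 0.087 ± 0.19). Its neighbour Ddc was low, at up to 1.57 CPM and at 0.104 CPM in KO line 72.

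Peg3, a paternally expressed zinc finger gene, had 222, 285 and 324 CPM in WT and 225, 222 and 60.2 CPM in KO lines. KO line 72 lay 3.73-fold below the median of the others, and the other KO lines lay close to the lowest WT line. For Peg3 the log2 fold change of -0.71 ± 0.48 (edgeR unadjusted p = 0.186) became -0.30 without KO line 72. Its neighbours Usp29 and Zim1, which are far less abundant, were lowest in KO line 72 as well, at 0.0389 and 3.01 CPM. The remaining lines held 0.298 to 0.741 CPM of Usp29 and 3.09 to 6.72 CPM of Zim1.

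Peg10 and Sgce share a control region on proximal chromosome 6. Peg10, a retrotransposon-derived gene, had 36.1, 38.6 and 29.4 CPM in WT and 56.5, 49.1 and 35.8 CPM in KO lines. KO lines 33 and 41 were above every WT line, but KO line 72 lay among them (log2 fold change 0.44 ± 0.19, unadjusted p = 0.0544, adjusted p = 0.351 in edgeR). Sgce, epsilon-sarcoglycan, had 26.3, 23.5 and 29.9 CPM in WT and 32.7, 30.7 and 22.6 CPM in KO lines. The groups overlapped with KO line 72 lowest. Asb4 stayed between 0.148 and 1.17 CPM.

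Plagl1, a zinc finger factor that regulates other imprinted genes, had 44.8, 45.6 and 107 CPM in WT and 83.6, 88.9 and 45.3 CPM in KO lines. WT line 78 and KO lines 33 and 41 lay at 83.6 CPM or more, and WT lines 36 and 47 and KO line 72 at 45.6 CPM or less, so the lines fell into 2 levels that crossed the genotypes. Slc38a4, an amino acid transporter gene, had 25.2, 29.2 and 12.4 CPM in WT and 41.4, 36.6 and 17.5 CPM in KO lines. WT line 78 was lowest, and KO lines 33 and 41 were highest (log2 fold change 0.52 ± 0.42).

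In the Prader-Willi and Angelman region, Ndn, whose product necdin restrains the cell cycle, had 54.9, 52.2 and 48.9 CPM in WT and 50.6, 32.1 and 33.4 CPM in KO lines. KO lines 41 and 72 were below every WT line and KO line 33 lay among them (log2 fold change -0.43 ± 0.18, unadjusted p = 0.0570, adjusted p = 0.359 in edgeR). Snrpn, a spliceosome protein gene, had 4.42, 3.71 and 3.82 CPM in WT and 2.85, 3.17 and 5.50 CPM in KO lines. Its KO lines lay on both sides of the WT lines. Ube3a, the Angelman ubiquitin ligase gene, was the steadiest member, with a range of 1.11-fold around 169 CPM in WT. Mkrn3, a makorin ubiquitin ligase gene, stayed between 0.233 and 0.422 CPM.

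At most of the remaining loci differences were small. Gnas, the stimulatory G protein subunit gene, had 18.2, 21.7 and 20.0 CPM in WT and 19.9, 18.2 and 20.2 CPM in KO lines, a range of 1.19-fold. Impact, a regulator of translation, had 146, 131 and 126 CPM in WT and 95.9, 129.9 and 140.3 CPM in KO lines, with KO line 33 lowest and the groups overlapping. Blcap, Mcts2, Commd1, Zrsr1, Inpp5f, Trappc9, H13 and Peg13 ranged from 1.14-fold (Inpp5f) to 1.66-fold (H13) over the 6 lines. Exons of Zrsr1 and Commd1, of Gnas and Nespas, of Ube3a and Snhg14 and of Kcnq1ot1 and Kcnq1 overlap on opposite strands, and Snrpn shares exons with Snurf, so counts of these members are uncertain. Spans overlap for Nnat and Blcap, Mcts2 and H13, Peg13 and Trappc9, and Nap1l5 and Herc3, with under 50 shared exon bases. Whether intron reads of 1 gene add to the count of the other was not tested. The retrogene Nap1l5 ranged 4.05-fold, and KO line 72 was lowest at 0.376 CPM. Levels per kilobase of exon, which allow members to be set side by side, were highest in the WT lines for Cd81 (112 to 146 CPM per kb), H19 (102 to 172) and Igf2r (93.8 to 113), whose ranges overlapped. Grb10 followed at 68.6 to 86.5 CPM per kb and Cdkn1c at 35.8 to 48.2, both below the ranges of those before them.

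Genes that set or keep imprints were described beside the members. Of 19 tested genes of that list, 6 had higher and 13 lower estimates in KO, with a median log2 fold change of -0.087. In edgeR 2 higher and 3 lower genes were at unadjusted p under 0.05, where 5.88% of all tested genes were higher and 8.77% lower. The list was not tested as a set. At adjusted p under 0.05 edgeR called 0, and DESeq2 called 2 as higher, Uhrf1 (adjusted p = 0.012) and Cbx5 (adjusted p = 0.022). Of all tested genes DESeq2 called 1.53% higher and 4.37% lower. Without KO line 72, 11 genes of the list were higher and 8 lower in edgeR. With lane in the model 1 in each direction was at unadjusted p under 0.05, where 931 of all 14773 tested genes were, both directions together. Uhrf1, which brings the maintenance methyltransferase to replicated DNA, had 44.2, 65.8 and 43.3 CPM in WT and 92.9, 81.0 and 75.2 CPM in KO lines. The groups did not overlap (log2 fold change 0.70 ± 0.18, unadjusted p = 0.00793, adjusted p = 0.187 in edgeR), and the proliferation genes given above also had higher estimates in KO. Their part in this value was not tested. The heterochromatin protein gene Cbx5 had a log2 fold change of 0.38 ± 0.10, Tet2 of -0.42 ± 0.14, Arid4a of -0.28 ± 0.10 and Arid4b of -0.28 ± 0.11, each at unadjusted p under 0.05 in edgeR. With lane in the model the unadjusted p was 0.0596 for Cbx5, 0.126 for Tet2 and 0.161 for Arid4a. With the Y-linked term the estimate for Arid4a was -0.33. Without KO line 41 or WT line 36 or 78, and for Arid4a also without KO line 33, the unadjusted p was 0.062 to 0.0698 for Tet2 and 0.0759 to 0.0951 for Arid4a. For Arid4b it was 0.0532 to 0.119 without any 1 line other than WT line 36.

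ZFP57 and ZFP445 bind methylated control regions and recruit TRIM28. Zfp57 had 4.71, 5.70 and 4.98 CPM in WT and 6.51, 5.33 and 3.23 CPM in KO lines, with KO line 72 lowest and KO line 33 highest. The log2 fold change was -0.030 ± 0.27 for Zfp57, -0.11 ± 0.086 for Zfp445, 0.15 ± 0.13 for Trim28, 0.20 ± 0.15 for the maintenance methyltransferase gene Dnmt1 and -0.082 ± 0.090 for Ctcf, the insulator protein of the H19 control region. All 5 had unadjusted p above 0.05 in edgeR.

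Of 14 genes whose products act with IGF2, 7 had higher and 7 lower estimates. Igf1, the related growth factor, had 218, 241 and 281 CPM in WT and 118, 167 and 76.3 CPM in KO lines. No KO line reached the lowest WT line (log2 fold change -1.04 ± 0.28, unadjusted p = 0.00912 in edgeR), and the blood markers given above had lower estimates in the same comparison. The RNA-binding protein gene Igf2bp1 had a log2 fold change of 0.29 ± 0.094 (unadjusted p = 0.0207, and 0.0600 with lane in the model). Neither passed adjusted p under 0.05 in edgeR, while Igf1 passed in DESeq2 (adjusted p = 0.00564).

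Genes near the members had smaller ranges. The 71 tested protein-coding genes that start within 250 kb of a member and are not listed as imprinted had a median ratio of highest to lowest line of 1.42, beside 2.12 for the members and 1.46 for all tested genes. Their median log2 fold change was 0.067, with 9 higher and 5 lower at unadjusted p under 0.05 and 0 at adjusted p under 0.05 in edgeR. Of all tested genes 5.88% were higher and 8.77% lower at unadjusted p under 0.05. Another 16 tested genes reported as imprinted, many in placenta only, had a median ratio of 2.59 and a median log2 fold change of -0.18. Of these 16, Pon2 (log2 fold change -0.42 ± 0.12) and Htr2a (-1.33 ± 0.41) were lower at unadjusted p under 0.05 in edgeR, beside 8.77% of all tested genes. Neither passed the adjusted threshold in edgeR. In DESeq2 the adjusted p was 0.0517 for Pon2 and 0.0164 for Htr2a. The unadjusted edgeR p of Htr2a was 0.0709 with lane in the model, and its estimate with the Y-linked term was -1.06.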

How the data were processed

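RNA-seq of 6 pMEF lines (3 HAT1 WT, 3 HAT1 KO) was analysed from 1 table of raw counts per gene deposited by the authors. Libraries were made with the TruSeq RNA v2 kit, which keeps no strand. The submitters' processing notes name the build mm10 and edgeR, and the aligner and counter are not given in the sources used here. Columns of the authors' own comparison (log2 fold changes, mean log2 CPM, test scores, p-values and adjusted p-values, deposited in the same table) were not used. For 24 genes, symbols that a spreadsheet had turned into dates were restored from gene identifiers. Gene positions were taken from the GENCODE M21 annotation of GRCm38 (mm10).

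Counts were tested with edgeR 4.0.16 (R 4.3.3, limma 3.58.1), using filterByExpr, TMM scaling and quasi-likelihood F tests of genotype over 14773 genes with Benjamini-Hochberg adjustment. The script was tested on simulated data. An approximate SE was obtained as the size of the log2 fold change over the root of its F value. Line ranges use log2 CPM with a prior count of 2. Alternatives were DESeq2 1.42.0, other scalings and filters, lane or a Y-linked term (lines with over 1000 Y-linked counts) in the model, and leaving out each line. The Y-linked term marks WT lines 36 and 47, which leaves WT line 78 alone against the KO lines. Libraries held 67720628 to 98786746 counts and counting error, which weighs most on members of few counts, was not separated from the spread between lines.

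The members and lists were chosen with earlier results of these data known. Values in every line are given for members at unadjusted p under 0.05 and for a set of leading imprinted transcripts, and the other members by range. Those singled out otherwise (Dio3, Rtl1, Copg2, Begain and Cpa4 among them) were chosen after their values were seen. Lanes could not be analysed on their own, since lane 8 held 1 WT line, lane 7 held 1 line of each genotype and lane 6 held 1 WT and 2 KO lines. With lane in the model the WT line of lane 8 does not add to the genotype estimate, so that fit has less power. Promoter and microRNA sequences are from RefSeq (GRCm38.p6), where 42 of 51 members had a promoter entry.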

Additional observations from a re-analysis of the deposited data

How the results depend on the processing

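Under all alternatives that left at least 2 lines of each genotype to compare, edgeR called 0 members at adjusted p under 0.05. DESeq2 called 1, Ppp1r9a (log2 fold change -1.16). Members lower at unadjusted p under 0.05 numbered 3, 1 with lane in the model (Kcnq1ot1) and 1 to 4 with 1 line left out, the fewest without WT line 78 (Ppp1r9a). Members higher numbered 0, 2 with DESeq2 (Dio3, Peg10), 2 with no filter (Dio3, Peg10) and 0 to 3 with 1 line left out. The most were higher without KO line 72 (H19, Usp29, Peg10). Among all tested genes, calls at unadjusted p under 0.05 in both directions together numbered 2164 of 14773 in the main edgeR fit. They numbered 931 with lane, 2442 with DESeq2 and 2327 of 17512 with no filter. Without KO line 72 they numbered 2786 of 15037, and without WT line 78 they numbered 1516 of 14992. Over all genes, edgeR called 78 at adjusted p under 0.05, and DESeq2 called 871. The edgeR count was 2 with lane in the model, 58 with DESeq2 size factors, 46 with no filter and 0 to 73 with 1 line left out. Hat1 kept its direction, also with the Y-linked term (-0.98). It passed the adjusted threshold neither with lane in the model (-1.10) nor with 1 line left out (-1.08 to -0.87). Calls from the Y-linked fit are left out of this paragraph, since it leaves WT line 78 alone against the KO lines.

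The median log2 fold change of the further imprinted genes, -0.18, was -0.089 with the Y-linked term, -0.078 with lane, -0.037 with a mean of at least 50 counts, -0.022 with no filter and -0.21 to -0.057 with 1 line left out. That of the neighbours was 0.019 to 0.092 with 1 line left out. Cluster medians moved to 0.27 with the Y-linked term for Peg10-Sgce (-0.53 to 0.16 with 1 line left out) and to 0.28 with it for H13-Mcts2. They were -0.13 to 0.98 with 1 line left out for Mest-Copg2. For the Prader-Willi and Angelman region they were -0.24 with lane, -0.050 with a mean of at least 50 counts and -0.22 to -0.072 with 1 line left out. With 1 line left out, the estimate spanned 0 for Mest (-0.21 to 1.81), Igf2 (-0.55 to 1.61), H19 (-0.43 to 1.08), Rtl1 (-0.56 to 0.21), Dlk1 (-0.40 to 0.82, and -0.040 without WT line 47) and Cdkn1c (-1.18 to 0.076), and that of Dlk1 was -0.42 with the Y-linked term. The cause was not tested.

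No paired analysis was possible because the genotypes share no line number. With 3 lines a genotype, 1 line such as KO line 72 can set a difference, and changes smaller than the spread between lines were not detectable.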
